A study of Mus musculus with 30 samples.

Results

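Transcripts of 8 genes that build the thin filament or help to assemble the sarcomere were followed through the differentiation of C2C12 cells, a mouse myoblast line, with and without hexavalent chromium. The genes were the tropomyosins Tpm1, Tpm2, Tpm3 and Tpm4, the leiomodins Lmod2 and Lmod3, the myosin chaperone Unc45b and the muscle methyltransferase Smyd1. They were chosen by name from the 48709 genes of the deposited table, and all 8 were found and passed the filter on low values, as did 12946 genes in all. Myoblasts were grown in medium with fetal bovine serum and moved on day 0 to a differentiation medium with horse serum. Potassium chromate, a source of Cr(VI), was added to that medium at 2 or 5 µM or left out (0 µM, the control). The 30 libraries formed 10 groups of 3 replicates, namely untreated cells on day 0 and cells at 0, 2 and 5 µM on days 1, 2 and 4. All groups came from this 1 cell line, and the labels say of the replicates only that they are biological replicates. The p values thus set a difference between groups against the spread between these samples, and those of limma use all 10 groups for it.

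Tropomyosins are coiled-coil proteins that lie end to end along actin filaments. In striated muscle they place the troponin complex and gate the access of myosin to actin, while non-muscle forms mark out the stress fibres and cortical filaments of undifferentiated cells. Each tropomyosin gene gives several proteins through alternative starts and splicing. Leiomodins nucleate actin and lengthen thin filaments from their pointed ends, where tropomodulins cap them. UNC45B folds the myosin motor domain together with the chaperone HSP90, and SMYD1 is a muscle methyltransferase that takes part in thick filament assembly with both of them.

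Values are given in scaled CPM, the authors' read counts relative to library size (CPM) after a further scaling of each library. A gene was called, and is said to have risen or fallen or to be higher or lower, when its Benjamini-Hochberg adjusted p over the 12946 genes was below 0.05 in limma. Log2 changes are on the scale of log2(scaled CPM + 1), which understates changes of genes near 0. The depth of the libraries, as reads recovered from the values, was 18.5M to 26.9M. A single read counted for 0.038 to 0.0584 scaled CPM, depending on the library. The muscle lineage markers Myod1, Myf5, Myog, Des and Ckm summed to 837 to 5850 scaled CPM in 28 libraries, and none of the 5 was at 0 in any library.

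A pair of day 1 libraries stood apart through transcripts of other tissues. Adipocyte markers summed to 3030 scaled CPM in replicate 1 of 2 µM and to at most 1.26 in the 28 other libraries. Lung epithelium markers summed to 337 and leukocyte markers to 303 scaled CPM in replicate 3 of 5 µM, against at most 0.45 and 0.715 in those 28. In each of the 2 libraries, 7 of the 8 genes, all but Lmod2, had the lowest value of the 3 replicates. How often this held among all genes tested was not counted. Day 1 results are therefore given with and without these libraries where that changed a call. In whole cultures such as these, fewer muscle cells and less RNA per cell cannot be told apart.

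In control cells the tropomyosins exchanged places while both leiomodins and both assembly factors came up from near 0. Between day 0 and day 4, 6 of the 8 genes rose and 2 fell, where 59.8% of all genes tested changed (30.3% higher, 29.5% lower). Tpm1, Tpm2, Lmod2, Lmod3, Unc45b and Smyd1 were the ones that rose, and Tpm3 and Tpm4 fell. The median log2 change of the 8 was 5.39, against 0.01 over all genes tested. At 5 µM Cr(VI) the genes that rise in differentiation were lower than in control on every day, by most on the log2 scale for Unc45b, while Tpm3 was higher on days 2 and 4.

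**Figure D1:**
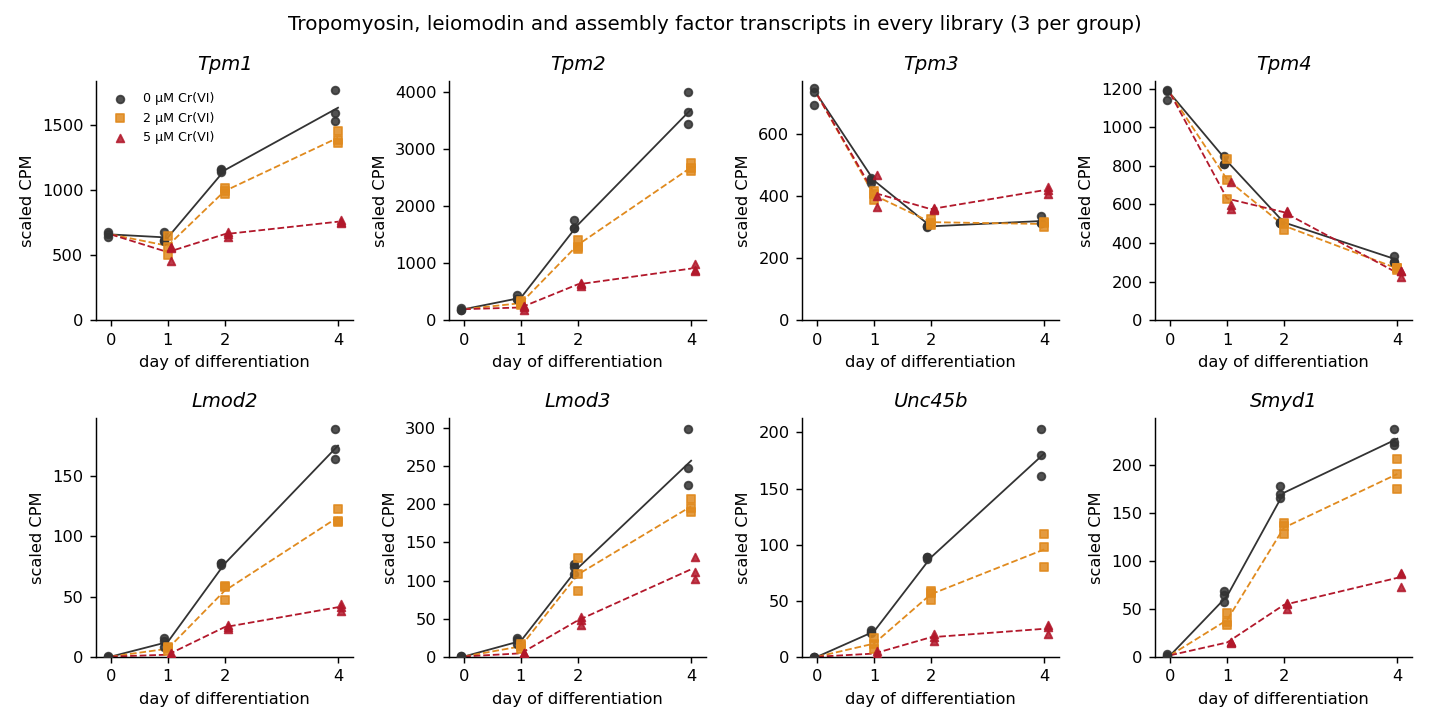
Scaled CPM (linear axes from 0) of each gene against the day of differentiation, with 1 point per library and lines through the group means, the dashed lines starting from the shared untreated day 0 group. Tpm1, Tpm2, Lmod2, Lmod3, Unc45b and Smyd1 climb in control cells and lie lowest at 5 µM on day 4, whereas Tpm3 and Tpm4 decline and Tpm3 lies highest at 5 µM on days 2 and 4.

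Tpm2 encodes beta-tropomyosin, the form of slow and developing skeletal fibres. Its 3 day 0 libraries held 186, 207 and 181 scaled CPM. In control cells it stood at 366, 372 and 436 on day 1, at 1622, 1616 and 1763 on day 2, and at 3436, 4005 and 3659 on day 4. No 2 control days overlapped, and the change from day 0 to day 4 was 4.26 ± 0.10 (log2, SE, n = 3 against 3, adjusted p = 2.1e-28, limma). At 5 µM the values were 237, 249 and 179 on day 1, then 601, 644 and 634 on day 2, and 979, 881 and 855 on day 4. All 9 libraries at 5 µM lay below the control libraries of their day, and those of day 1 overlapped the day 0 libraries. Tpm2 was lower than in control by 0.83 on day 1 (adjusted p = 7.6e-08), by 1.41 on day 2 (adjusted p = 2.2e-13) and by 2.03 on day 4 (adjusted p = 2.6e-18) on the log2 scale in limma. Its mean at 5 µM was 56.6%, 37.6% and 24.4% of control on the 3 days. The gap thus widened, by 0.58 from day 1 to day 2 (adjusted p = 0.0061 for the change of effect) and by 0.62 from day 2 to day 4 (adjusted p = 0.00097), in limma. Among the 10 groups only 5 µM on day 1 and untreated day 0 overlapped as neighbours in the order of levels.

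At 2 µM Tpm2 held 263, 302 and 327 scaled CPM on day 1, then 1256, 1291 and 1407 on day 2, and 2615, 2762 and 2666 on day 4. These libraries lay between control and 5 µM on each day without overlap. The log2 change against control was -0.46 on day 4 (adjusted p = 0.0015) and -0.34 on day 2, where it did not pass (adjusted p = 0.11), in limma. On day 1 the change of -0.40 passed with all libraries (adjusted p = 0.021) and was -0.31 without the 2 libraries that stood apart (adjusted p = 0.072, limma). It also missed the threshold without control replicate 3 of day 1 (adjusted p = 0.17) or without replicate 1 of 2 µM alone (adjusted p = 0.20).

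Tpm1 encodes alpha-tropomyosin, the main form of fast skeletal and heart muscle, and also gives non-muscle proteins. It was abundant in myoblasts, with 677, 641 and 660 scaled CPM on day 0. Control values were 618, 610 and 678 on day 1, which overlapped day 0, then 1164, 1140 and 1155 on day 2, and 1594, 1774 and 1536 on day 4. From day 0 to day 4 it rose by 1.31 ± 0.08 (log2, SE, adjusted p = 1.2e-15, limma). Under 5 µM the libraries held 561, 555 and 453 on day 1, then 680, 662 and 642 on day 2, and 758, 771 and 744 on day 4. The libraries of day 2 at 5 µM overlapped those of day 0, and on each day they lay below control. Tpm1 was lower by 0.80 on day 2 (adjusted p = 2.3e-09) and by 1.11 on day 4 (adjusted p = 2.3e-13) on the log2 scale in limma, which left 57.3% and 46.3% of the control mean. On day 1 the log2 change was -0.29 (adjusted p = 0.017), but it was -0.19 without the 2 libraries that stood apart (adjusted p = 0.10, limma). It was also not called without control replicate 3 of day 1 (-0.24, adjusted p = 0.10) or without replicate 3 of 5 µM (-0.19, adjusted p = 0.15). Against untreated day 0, the 5 µM cells of day 4 were higher in Tpm1 by 0.20 (adjusted p = 0.034, limma), a call that was lost in 5 of 6 fits with 1 of these libraries left out.

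At 2 µM Tpm1 held 501, 565 and 649 scaled CPM on day 1, then 967, 1015 and 996 on day 2, and 1388, 1366 and 1457 on day 4. On days 2 and 4 all libraries lay below those of control, by -0.22 on the log2 scale on each day, and neither passed (adjusted p = 0.38 and 0.099, limma). Without the 2 libraries of day 1 that stood apart, which also enter the spread, the day 4 change had an adjusted p of 0.03. The order of levels ran from control day 4 down to 5 µM on day 4 without overlap. The 5 lower groups, from 5 µM on day 2 to 5 µM on day 1, each overlapped their neighbour.

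Tpm3 gives the tropomyosin of slow fibres from one start and a non-muscle form from another, and the table gives 1 value for both. It held 749, 737 and 695 scaled CPM on day 0. Control values were 458, 451 and 443 on day 1, then 302, 301 and 304 on day 2, and 312, 337 and 312 on day 4. Day 4 lay above day 2 without overlap, by a log2 change of 0.08 that did not pass (adjusted p = 0.45, limma). From day 0 to day 4 it fell by 1.18 ± 0.07 (log2, SE, adjusted p = 3.1e-16, limma). With 5 µM its values were 468, 400 and 365 on day 1, then 362, 357 and 355 on day 2, and 407, 421 and 430 on day 4. The day 1 libraries overlapped control (log2 -0.14, adjusted p = 0.21), whereas all 6 libraries of days 2 and 4 lay above it. Tpm3 was higher than in control by 0.24 on day 2 (adjusted p = 0.011) and by 0.39 on day 4 (adjusted p = 1.9e-05) on the log2 scale in limma, or 118% and 131% of the control mean. Under 5 µM it rose again from day 2 to day 4 by 0.23 (adjusted p = 0.0099), although not past the threshold after quantile normalization (0.12, adjusted p = 0.11).

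The 2 promoter windows that RefSeq lists for Tpm3 (assembly GRCm38.p6) are printed because the gene has 2 separate starts. Capitals mark an E-box, the letters CANNTG that myogenic factors of the MyoD family can bind, and the sequences are given in the direction of transcription without annotated exon bases.
Tpm3, chr3:90072401-90072648, plus strand: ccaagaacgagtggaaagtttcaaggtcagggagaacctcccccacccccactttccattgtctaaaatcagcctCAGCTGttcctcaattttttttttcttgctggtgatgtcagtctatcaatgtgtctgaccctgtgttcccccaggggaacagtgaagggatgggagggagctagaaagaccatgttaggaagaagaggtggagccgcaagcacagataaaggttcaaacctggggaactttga
Tpm3, chr3:90079271-90079520, plus strand: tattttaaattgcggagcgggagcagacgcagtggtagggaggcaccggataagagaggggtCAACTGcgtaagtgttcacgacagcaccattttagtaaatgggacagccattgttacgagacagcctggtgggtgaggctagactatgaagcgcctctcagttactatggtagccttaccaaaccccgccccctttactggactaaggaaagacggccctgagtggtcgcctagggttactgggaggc
Each held 1 E-box, CAGCTG in the upstream window and CAACTG in the other. CANNTG was present in 66.2% of the 32841 windows of 250 bases before a start, on either strand, and CAGCTG in 13.0%. The gene-level values do not say which start was used. Reads of Tpm3 may also be shared with its copies Tpm3-rs7, listed at 0.58 to 7.1 scaled CPM, and Tpm3-rs2, listed at 0 in every library.

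At 2 µM Tpm3 held 387, 417 and 407 scaled CPM on day 1, then 315, 308 and 326 on day 2, and 299.8, 316 and 315 on day 4. The log2 change against control was -0.16, 0.06 and -0.05 on the 3 days, and none passed in limma (adjusted p = 0.31, 0.94 and 0.78). The 5 µM cells of day 4 were higher in Tpm3 than the 2 µM cells by 0.43 (adjusted p = 4.9e-06, limma), with no overlap. In the order of levels, day 0 stood above all others and control day 1 came next by its mean, although replicate 1 of 5 µM on day 1 exceeded each of its libraries. At the bottom, in rising order of means, control day 2, 2 µM on day 4, 2 µM on day 2 and control day 4 each overlapped their neighbour. Control day 2 overlapped only 2 µM on day 4 among these.

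Tpm4 encodes a non-muscle tropomyosin found on stress fibres and in remodelling muscle. It held 1191, 1141 and 1189 scaled CPM on day 0. In control cells it fell to 811, 850 and 809 on day 1, to 505, 511 and 503 on day 2, and to 330, 303 and 304 on day 4. No 2 days overlapped, and the fall to day 4 was 1.91 ± 0.08 (log2, SE, adjusted p = 3.3e-20, limma). Cells at 5 µM held 717, 598 and 574 on day 1, then 565, 554 and 559 on day 2, and 254, 226 and 254 on day 4. The libraries at 5 µM lay below control on days 1 and 4 and above it on day 2. Tpm4 was lower by 0.39 on day 1 (adjusted p = 0.00087) and by 0.35 on day 4 (adjusted p = 0.00046), and on day 2 its log2 change of 0.14 did not pass (adjusted p = 0.23), in limma. With only the groups of each comparison in the fit, the day 1 call was lost (adjusted p = 0.062) and the day 2 change passed (adjusted p = 0.046). The effect of 5 µM moved up by 0.54 from day 1 to day 2 (adjusted p = 0.0027) and down by 0.50 from day 2 to day 4 (adjusted p = 0.0018), in limma. Under 5 µM the step of Tpm4 from day 1 to day 2 did not pass (log2 -0.16, adjusted p = 0.17), and it then fell by 1.19 (adjusted p = 1.1e-13), where control cells fell by 0.70 in each of these steps. With the 2 libraries that stood apart left out, the first of these steps at 5 µM was a fall of 0.23 (adjusted p = 0.039). At 2 µM it held 626, 729 and 833 on day 1, then 506, 498 and 465 on day 2, and 268, 262 and 272 on day 4. On days 1 and 2 these overlapped control and on day 4 they lay below it, with a log2 change of -0.22 that did not pass (adjusted p = 0.09, limma). Without the 2 libraries that stood apart, the same change had an adjusted p of 0.036.

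With an unchanged mix of transcripts per gene, gene length cancels in the change of a ratio between 2 genes of the same library. The exchange of tropomyosins was therefore also followed as the ratio of each gene to Tpm4. Whether the mix changed cannot be told from gene values. The log2 ratio of Tpm2 to Tpm4 was -2.67, -2.45 and -2.71 on day 0 and 3.38, 3.72 and 3.59 in control cells of day 4. At 5 µM it was -1.60, -1.26 and -1.68 on day 1, then 0.09, 0.22 and 0.18 on day 2, and 1.94, 1.96 and 1.75 on day 4. The 5 µM libraries lay below control without overlap on each day, by -0.44, -1.55 and -1.68. For Tpm1 to Tpm4 the difference was 0.11 on day 1 with overlapping libraries, -0.95 on day 2 and -0.75 on day 4. For Tpm3 to Tpm4 it was 0.25, 0.10 and 0.74, with 5 µM above control on each day. In the exact permutation test (two-sided), 11 of the 12 comparisons gave p = 0.1, the smallest that 3 against 3 allows, with an adjusted p of 0.1091 over the 12. The exception was Tpm1 to Tpm4 on day 1 (p = 0.4, exact permutation test).

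**Figure D2:**
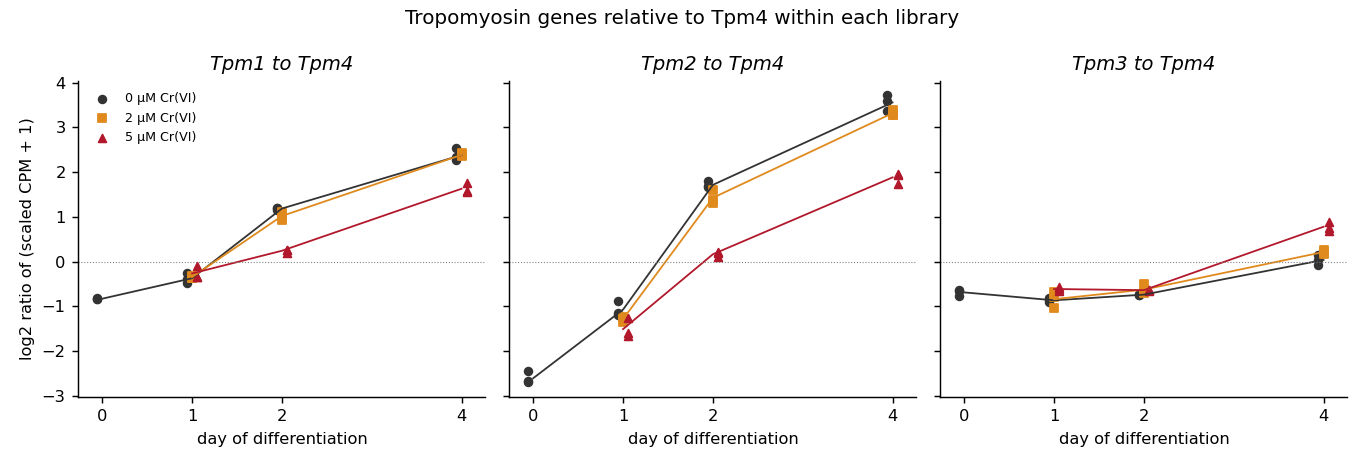
Log2 ratio of Tpm1, Tpm2 and Tpm3 to Tpm4 within each library (scaled CPM + 1) against the day of differentiation, 1 point per library, lines through the group means, and a dotted line at equal values. In control cells the ratio of Tpm2 to Tpm4 rises from a mean of -2.61 on day 0 to 3.56 on day 4, and at 5 µM it reaches 1.88.

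Per kilobase, the make-up of the tropomyosin pool depended on the length used for each gene. With the merged exons of GENCODE vM21, Tpm2 made up 8.04 ± 0.67% of the 4 genes on day 0 and 74.0 ± 1.2% in control cells of day 4 (SD, n = 3). With the median coding transcript these shares were 6.87 ± 0.53% and 61.4 ± 1.2%. At 5 µM on day 4 the share of Tpm2 was 51.1 ± 1.8% by the first length and 37.0 ± 1.8% by the second. On day 0 Tpm4 was the largest share by the first length (65.0%) and Tpm3 by the second (37.4%), so the order of genes within myoblasts is not given by these values.

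Lmod2 encodes a leiomodin of skeletal and heart muscle. On day 0 its libraries held 2, 0 and 9 reads, or 0.09, 0 and 0.47 scaled CPM. Control values were 12.9, 8.37 and 15.6 on day 1, then 77.7, 77.7 and 76.2 on day 2, and 173, 165 and 189 on day 4. The days did not overlap, and the log2 change from day 0 to day 4 was 7.24 ± 0.20 (SE, adjusted p = 9.3e-26, limma), a value that depends on the pseudocount because day 0 was near 0. Cells at 5 µM had 1.11, 2.74 and 1.36 on day 1, then 23.1, 24.7 and 26.0 on day 2, and 44.2, 38.0 and 41.5 on day 4. Each 5 µM library lay below all control libraries of its day. Lmod2 was lower by 2.29 on day 1 (adjusted p = 1.7e-10), by 1.61 on day 2 (adjusted p = 1.3e-07) and by 2.06 on day 4 (adjusted p = 1.4e-10) on the log2 scale in limma. As a share of the control mean, 14.1%, 31.9% and 23.5% remained on the 3 days.

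The bases before the start of Lmod2 are printed, like those of Smyd1 further on, because these genes rose from near 0 in control cells and the table of promoters gives them a stretch free of exons.
Lmod2, chr6:24597521-24597761, plus strand: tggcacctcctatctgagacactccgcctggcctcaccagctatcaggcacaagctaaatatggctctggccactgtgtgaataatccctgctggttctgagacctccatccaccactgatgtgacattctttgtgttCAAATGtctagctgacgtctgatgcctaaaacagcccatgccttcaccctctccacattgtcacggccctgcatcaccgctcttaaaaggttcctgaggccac
The capitals mark its single E-box, CAAATG, which ends 107 bases before the start. For Lmod3 no window is shown.

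Lmod3 encodes the leiomodin of skeletal muscle whose loss causes nemaline myopathy. On day 0 its libraries held 11, 15 and 3 reads, or 0.49, 0.63 and 0.16 scaled CPM. Control values were 24.3, 16.3 and 21.9 on day 1, then 118, 121 and 109 on day 2, and 248, 225 and 299 on day 4. At 5 µM it held 4.61, 5.24 and 3.77 on day 1, then 48.3, 52.8 and 41.9 on day 2, and 131, 111 and 103 on day 4. All 5 µM libraries lay below control on their day, and those of day 4 overlapped the control libraries of day 2. Lmod3 was lower by 1.97 on day 1 (adjusted p = 9.6e-11), by 1.27 on day 2 (adjusted p = 4.4e-07) and by 1.16 on day 4 (adjusted p = 5.7e-07) on the log2 scale in limma. Its share of the control mean went from 21.8% on day 1 to 41.0% on day 2 and 44.6% on day 4, and the effect shrank by 0.81 between days 1 and 4 (adjusted p = 0.0089 for the change, limma). With a pseudocount of 4 that change was 0.39 and did not pass (adjusted p = 0.15). For Lmod2 the same change was 0.22 and did not pass (adjusted p = 0.60), and whether the leiomodins differ in this was not tested.

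At 2 µM Lmod2 held 7.88, 7.63 and 4.58 scaled CPM on day 1, then 47.1, 59.1 and 58.1 on day 2, and 113, 123 and 112 on day 4. These lay below control and above 5 µM on each day without overlap. On day 1 the log2 change of -0.78 against control passed (adjusted p = 0.033), but not without control replicate 1 or 3 or without 2 µM replicate 3 of that day (adjusted p = 0.14, 0.23 and 0.18, limma). On day 4 the change of -0.59 did not pass (adjusted p = 0.062, limma), and it had an adjusted p of 0.045 without the 2 libraries that stood apart. Lmod3 at 2 µM held 10.2, 17.3 and 13.6 on day 1, then 86.0, 108 and 129 on day 2, and 190.1, 196 and 207 on day 4. It overlapped control on days 1 and 2 and lay below it on day 4. None of its changes against control passed (log2 -0.58, -0.12 and -0.37, adjusted p = 0.072, 0.95 and 0.19, limma), although the first was called without control replicate 2 or 2 µM replicate 2 of day 1 (adjusted p = 0.029 and 0.013).

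Unc45b, the muscle form of the UNC45 myosin chaperones, showed the largest log2 difference of the 8 genes between 5 µM and control on each day. On day 0 its libraries held 0, 5 and 0 reads. Control values were 22.3, 23.8 and 21.5 scaled CPM on day 1, then 87.4, 89.0 and 89.0 on day 2, and 203, 161 and 179.8 on day 4. With 5 µM the values were 4.90, 2.70 and 0.963 on day 1, then 13.9, 17.6 and 20.7 on day 2, and 28.3, 26.2 and 20.4 on day 4. Every 5 µM library was below every control library of its day, and the 5 µM libraries of days 2 and 4 overlapped each other. Unc45b was lower by 2.75 on day 1 (adjusted p = 5e-10), by 2.30 on day 2 (adjusted p = 1.1e-08) and by 2.82 on day 4 (adjusted p = 2.2e-11) on the log2 scale in limma. Its mean was 12.7%, 19.7% and 13.8% of control on the 3 days. Under 5 µM the log2 change from day 2 to day 4 was 0.50 and did not pass (adjusted p = 0.12), whereas it was 1.02 in control cells (adjusted p = 0.0026), in limma. Without the 2 libraries that stood apart this step at 5 µM passed (adjusted p = 0.019). The difference between both steps was -0.52 and did not pass with all libraries (adjusted p = 0.33) or without these 2 (adjusted p = 0.12). An antisense transcript listed over the gene, Unc45bos, had at most 0.531 scaled CPM.

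At 2 µM Unc45b held 6.67, 16.9 and 11.7 scaled CPM on day 1, then 51.1, 57.2 and 58.7 on day 2, and 80.1, 97.8 and 109 on day 4. It lay below control and above 5 µM on each day without overlap. The log2 change against control was -0.92 on day 4 (adjusted p = 0.017, limma), which was lost without control replicate 1 (adjusted p = 0.084) or 2 µM replicate 1 of that day (adjusted p = 0.10). The day 4 call was also lost with a pseudocount of 0.25 (adjusted p = 0.063), quantile normalization (adjusted p = 0.058) or DESeq2 (adjusted p = 0.054). On day 2 the change of -0.66 did not pass (adjusted p = 0.39). On day 1 it was -0.97 (adjusted p = 0.035), and -0.64 without the 2 libraries that stood apart (adjusted p = 0.13). That call was lost as well without control replicate 1, 2 or 3 of day 1 (adjusted p = 0.10, 0.12 and 0.092).

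Smyd1 is expressed in skeletal and heart muscle. The 250 bases before its start hold no E-box.
Smyd1, chr6:71262282-71262531, minus strand: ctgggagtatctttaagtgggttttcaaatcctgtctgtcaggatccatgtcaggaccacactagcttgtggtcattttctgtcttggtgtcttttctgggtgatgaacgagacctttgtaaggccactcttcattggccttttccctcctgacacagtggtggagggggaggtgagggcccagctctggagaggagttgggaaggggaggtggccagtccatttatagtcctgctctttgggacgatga
On day 0 its libraries held 62, 30 and 16 reads, or 2.79, 1.26 and 0.83 scaled CPM. Control values were 68.2, 57.6 and 64.4 on day 1, then 169.9, 178 and 166 on day 2, and 238, 224 and 221 on day 4. Smyd1 thus reached 63.4 ± 5.39 scaled CPM (SD, n = 3) within a day, and the last step from day 2 to day 4 was its smallest (log2 0.41, adjusted p = 0.045, limma). That last call was lost whichever of the 6 libraries was left out (adjusted p = 0.069 to 0.12). At 5 µM it held 15.1, 15.5 and 14.3 on day 1, then 55.6, 56.6 and 50.4 on day 2, and 88.0, 72.9 and 86.5 on day 4. All lay below control on their day, and the 5 µM libraries of day 2 lay just below the control libraries of day 1. Smyd1 was lower by 2.01 on day 1 (adjusted p = 3.3e-12), by 1.64 on day 2 (adjusted p = 2e-10) and by 1.46 on day 4 (adjusted p = 5.6e-10) on the log2 scale in limma, or 23.6%, 31.6% and 36.2% of the control mean. The effect was smaller on day 4 than on day 1 by 0.55 (adjusted p = 0.047, limma), a change that was lost in 10 of 12 fits with 1 library left out. Smyd1 overlaps Krcc1 on the other strand, and whether the counting used strand is not given in the sources used here. Krcc1 held 60.4, 48.9 and 56.6 scaled CPM on day 0, and 58.3, 61.9 and 69.1 in control cells and 24.5, 24.9 and 26.2 at 5 µM on day 4. Its values at 5 µM lay below the others without overlap, and its part in the values of Smyd1 was not tested.

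At 2 µM Smyd1 held 32.8, 36.6 and 45.8 scaled CPM on day 1, then 128, 136 and 140.0 on day 2, and 206, 176 and 191 on day 4. These lay between control and 5 µM on each day without overlap. On day 1 the log2 change against control was -0.72 (adjusted p = 0.0061), and -0.61 without the 2 libraries that stood apart (adjusted p = 0.063) or without 2 µM replicate 1 alone (adjusted p = 0.073), in limma. On days 2 and 4 it was -0.34 and -0.26 and did not pass (adjusted p = 0.50 and 0.34, limma).

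Side by side, 7 of the 8 genes were lower at 5 µM than in control on day 1 and none was higher, where 13.7% of all genes tested changed (9.41% lower, 4.29% higher). Tpm3 was the one not called on that day. Of the 8, 6 were lower and Tpm3 was higher after 2 days, where 23.7% changed (13.4% lower, 10.2% higher). On day 4, 7 were lower and Tpm3 was higher, where 55.8% changed (28.6% lower, 27.3% higher). Most of the genes tested were thus called on day 4, and a call alone says little there. The median log2 change of the 8 was -1.40, -1.34 and -1.31 on the 3 days, against -0.01 over all genes tested on each. The effect of 5 µM itself changed between days in some of the genes. From day 1 to day 2 it moved up in 2 genes and down in 2, where 5.8% of all genes tested changed (3.04% up, 2.76% down). From day 2 to day 4 it moved down in 2, where 23.7% changed (12.5% up, 11.2% down), and from day 1 to day 4 up in 3 and down in 2, where 31.5% changed (16.5% up, 15% down). Without the 2 libraries that stood apart, the counts against control were 6 lower on day 1, with Tpm1 lost, and unaltered on days 2 and 4.

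**Figure D3:**
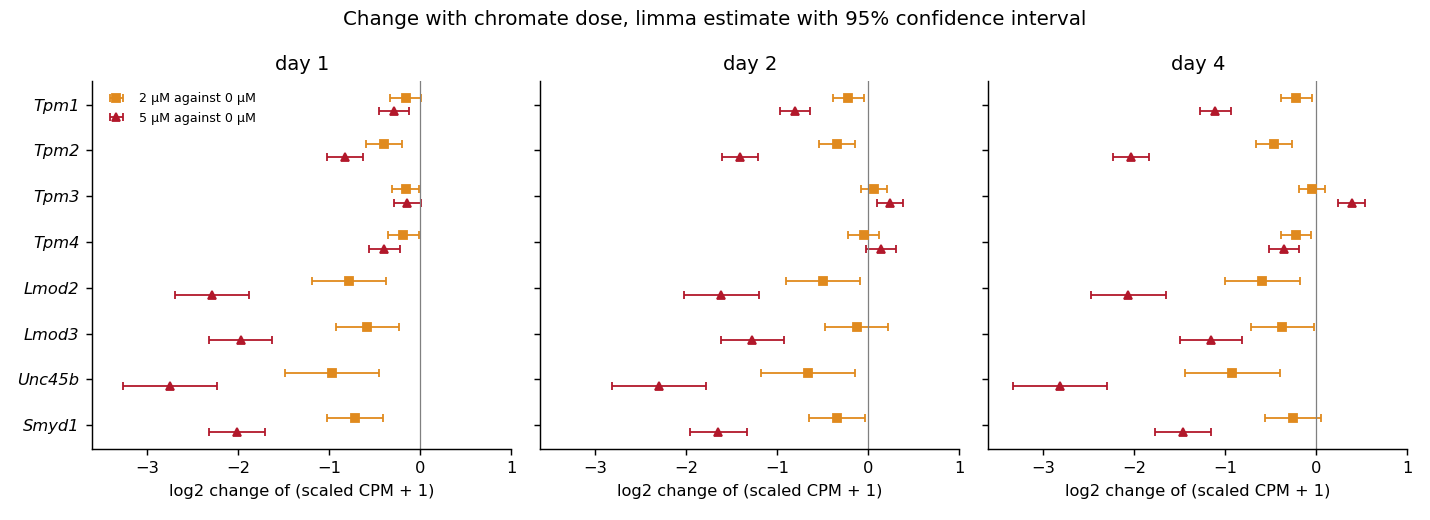
Log2 change of each gene at 2 µM (squares) and 5 µM (triangles) against control on days 1, 2 and 4, as limma estimates with 95% confidence intervals from all 30 libraries. At 5 µM, Unc45b lies farthest to the left on each day (-2.75, -2.30 and -2.82), and Tpm3 lies to the right of 0 on days 2 and 4.

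At 2 µM, 4 of the 8 genes were lower on day 1 (Tpm2, Lmod2, Unc45b and Smyd1), where 1.99% of all genes tested changed (1.48% lower, 0.518% higher). The count was 1, Lmod2, without the 2 libraries that stood apart, and it ranged from 1 to 5 with 1 library left out in turn. On day 2 none was called in limma, where 0.51% changed (0.247% lower, 0.263% higher). DESeq2 called 1, Tpm2, as did limma without the 2 libraries that stood apart (adjusted p = 0.017). With only the groups compared in the limma fit, Tpm1, Tpm2, Lmod2, Unc45b and Smyd1 were lower (adjusted p = 0.034, 0.021, 0.028, 0.0027 and 0.019). Of the 8 genes, 5 had a 95% confidence interval of the limma change below 0 on that day before adjustment, with the intervals of Tpm3, Tpm4 and Lmod3 crossing 0. The share of all genes tested with such an interval was not counted, and the shares above are for adjusted calls. This count is therefore not a sign of an effect. On day 4 Tpm2 and Unc45b were lower, where 8.84% changed (3.74% lower, 5.11% higher), and 5 were lower without the 2 libraries. In that fit the share of all genes called on day 4 stayed within 1.5 times of 8.84%. As a share of the control mean, the 8 genes at 2 µM ranged from 52.1% (Unc45b) to 90.0% (Tpm1) on day 1 and from 52.8% (Unc45b) to 96.9% (Tpm3) on day 4.

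Between the doses, 5 genes were lower at 5 than at 2 µM on day 1 (Tpm2, Lmod2, Lmod3, Unc45b and Smyd1), where 5.54% of all genes tested changed (4.25% lower, 1.29% higher). On day 2, Tpm1 joined them, where 12.8% changed (8.13% lower, 4.64% higher). On day 4 the same 6 were lower and Tpm3 was higher, where 47.6% changed (24.8% lower, 22.8% higher). The log2 difference between the doses was largest for Unc45b on each day (-1.78, -1.64 and -1.90, adjusted p = 1.1e-05, 1.4e-05 and 1.7e-07, limma). On day 1 the call of Tpm2 was lost without replicate 3 of 5 µM (-0.29, adjusted p = 0.076). With only the groups compared in the fit, the day 1 calls of Unc45b (adjusted p = 0.24), Lmod2 (adjusted p = 0.16), Lmod3 (adjusted p = 0.13) and Tpm2 (adjusted p = 0.31) were lost, which left Smyd1. Tpm4 was not called on any day with all libraries (log2 -0.21, 0.19 and -0.13). It was called on day 1 without replicate 1 of 2 µM (-0.31, adjusted p = 0.022) or of 5 µM (-0.30, adjusted p = 0.031), and on day 4 after quantile normalization (-0.20, adjusted p = 0.017).

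The treated cells of a day were also set against control cells of an earlier day. After 1 day at 5 µM, 4 genes were higher than on untreated day 0 and 3 lower, where 49.9% of all genes tested changed (25.8% higher, 24.1% lower). Lmod2, Lmod3, Unc45b and Smyd1 were the higher ones, and Tpm2 was not called (log2 0.20, adjusted p = 0.093) but passed without replicate 3 of 5 µM (0.34, adjusted p = 0.0029, limma). After 4 days 6 were higher and 2 lower than on day 0, where 63.2% changed (33.5% higher, 29.7% lower). Against control day 1, 5 µM cells of day 2 were higher in 3 genes and lower in 2, where 24.7% of all genes tested changed (12.7% higher, 12% lower). Lmod2 (0.98, adjusted p = 4e-04), Lmod3 (1.17, adjusted p = 2.9e-06) and Tpm2 (0.68, adjusted p = 2.2e-06) were higher on the log2 scale in limma, and Tpm3 and Tpm4 were lower (-0.33 and -0.56). Unc45b (-0.37) and Smyd1 (-0.22) did not pass (adjusted p = 0.31 for each), with 95% confidence intervals of -0.89 to 0.15 and -0.53 to 0.09. Leiomodin transcripts at 5 µM were thus past the level of control day 1 after 2 days, and those of the assembly factors had not been shown to be.

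Against control day 2, 5 µM cells of day 4 were higher in 1 gene and lower in 6, where 53.2% of all genes tested changed (25.6% higher, 27.6% lower). Lmod3 overlapped control day 2 and was not called (115 ± 14.6 and 116 ± 6.57 scaled CPM, SD, n = 3, log2 -0.02, 95% confidence interval -0.37 to 0.32, adjusted p = 0.92, limma). Unc45b was lower by 1.80 (adjusted p = 3.4e-07), Smyd1 by 1.05 (adjusted p = 4.9e-07), Lmod2 by 0.89 (adjusted p = 0.00035), Tpm2 by 0.88 (adjusted p = 2.4e-09) and Tpm1 by 0.61 (adjusted p = 1.7e-07) on the log2 scale in limma. Tpm4 was lower by 1.05 (adjusted p = 1.1e-12), although it falls in differentiation, and Tpm3, which also falls, was higher by 0.47 (adjusted p = 1e-06).

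Under 5 µM the genes still changed from day to day. From day 1 to day 2, 6 of the 8 rose and none fell, where 20.8% of all genes tested changed (12.9% higher, 7.99% lower). The log2 step of Tpm3 was -0.19 and just missed the threshold (adjusted p = 0.052, limma). When the 2 libraries that stood apart were left out 2 genes fell, Tpm3 by 0.27 (adjusted p = 0.0061) and Tpm4 by 0.23 (adjusted p = 0.039), and Tpm3 was also called without replicate 3 of 5 µM on day 1 alone and under 7 other settings. Lmod2 was up by 3.27 (adjusted p = 7.1e-15) and Lmod3 by 3.14 (adjusted p = 2.1e-16) on the log2 scale in limma. Control cells over the same step had 6 genes that rose and 2 that fell, where 22.2% changed (12.8% higher, 9.42% lower), and in these Lmod2 rose by 2.60 and Lmod3 by 2.44. From day 2 to day 4 at 5 µM, 5 rose (Tpm2, Tpm3, Lmod2, Lmod3 and Smyd1) and Tpm4 fell, where 41.3% changed (21% higher, 20.3% lower). The log2 step of Tpm1 was 0.20 and just missed the threshold (adjusted p = 0.055, limma). When the 2 libraries that stood apart were left out 7 rose, with Tpm1 (adjusted p = 0.017) and Unc45b (adjusted p = 0.019) gained, and Tpm1 was called under 6 other settings as well. Without these 2 libraries, the share of all genes called in either step at 5 µM stayed within 1.5 times of the share given. From day 2 to day 4 in control cells 6 rose and Tpm4 fell, where 25.7% changed (11.7% higher, 14.1% lower). At 2 µM, 6 rose and 2 fell from day 1 to day 2, where 21.7% changed (12.7% higher, 8.96% lower). Between days 2 and 4 at that dose 6 rose and 1 fell, where 25.2% changed (12.1% higher, 13.1% lower). From day 0 to day 1 in control cells, 5 rose and 2 fell, where 48.1% changed (25.4% higher, 22.7% lower), and Tpm1 was the one not called (-0.05, adjusted p = 0.63).

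Over the 10 group means of log2(scaled CPM + 1), which share their libraries and the course of differentiation, the 8 genes fell into a rising and a falling set. Lmod2 and Lmod3 were closest, with a Pearson r of 0.991, followed by Unc45b and Smyd1 (0.98). Tpm1 was closest to Tpm2 (0.949) and less like Smyd1 (0.71). Tpm3 and Tpm4 had an r of 0.671 with each other and were negative with each of the other 6. Among 8268 genes compared, those most like each member were Pgm5, Myom3 and Cacna1s for Lmod2 (0.998 for Pgm5), Hrc, Atp2a1 and Ckm for Lmod3 (0.999 for Hrc), and Galnt6, Arpp21 and Dok7 for Unc45b (0.998 for Galnt6). For Smyd1 they were Actc1, Mmp15 and Gprc5c (0.997 for Actc1), for Tpm2 Jph1, Fam171a2 and Tas1r1 (0.998 for Jph1), and for Tpm1 Vamp5, Mpi and Pstpip1 (0.995 for Vamp5). Tpm3 was closest to Pnp2, Eif4a1 and Dfna5 (0.993 for Pnp2), and Tpm4 to Fnbp1l, Nid1 and Cald1 (0.985 for Fnbp1l).

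The promoter windows of 7 members, 8 windows in all, were searched for short motifs on both strands. E-boxes were found in the windows of Tpm1, Tpm2, Lmod2, Unc45b and both of Tpm3, and not in those of Tpm4 and Smyd1. CAGCTG, an E-box that is counted under CANNTG too, was found in Tpm2 and the upstream Tpm3 window. The M-CAT element CATTCC was found in Tpm1 alone, beside 12.6% of all windows. The CArG box, bound by serum response factor, and the MEF2 site were found in none of the 8, beside 1.47% and 2.92% of all windows. Exon bases of GENCODE vM21 models, of any gene and on either strand, made up all 250 bases of the Unc45b window and 193 of the Tpm1 window. These matches are descriptions of letters, and genes that rose and genes that fell both had E-boxes.

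The partners of tropomyosin in the muscle thin filament moved in 1 direction. All 9 of the list (troponins and the actins Acta1 and Actc1) rose in control cells from day 0 to day 4, with a median log2 change of 9.72, where 30.3% of all genes tested rose. All 9 were lower at 5 µM than in control on days 1, 2 and 4, with medians of -2.30, -1.94 and -2.08, where 9.41%, 13.4% and 28.6% of all genes tested were lower. On day 4, troponin T Tnnt3 was lower by 2.51 (adjusted p = 4.3e-20), cardiac actin Actc1 by 2.44 (adjusted p = 2.3e-16) and skeletal actin Acta1 by 1.42 (adjusted p = 4.6e-15), in limma. Among 11 scaffolds and ubiquitin ligase adaptors of sarcomere assembly, 10 rose in control cells, and 8, 9 and 10 were lower at 5 µM on days 1, 2 and 4 with none higher, beside the same shares of all genes. Klhl41 was lower by 1.80 on day 4 (adjusted p = 2.4e-13), and Klhl40, which stabilizes LMOD3 and nebulin, by 1.68 (adjusted p = 1.6e-09). Klhl40 was not called on day 1 (-0.42, adjusted p = 0.13). Xirp2 was called on none of the 3 days.

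The genes that set thin filament length and turn actin over were split. Of 17, 16 were tested, with Tmod4 too low. On day 1, 6 were lower at 5 µM and none was higher, where 9.41% of all genes tested were lower and 4.29% higher. Day 2 had 5 lower and 6 higher, and day 4 had 6 lower and 7 higher. Over all genes tested, 13.4% were lower and 10.2% higher on day 2, and 28.6% were lower and 27.3% higher on day 4. Day 1 had 4 lower without the 2 libraries that stood apart. Lower on day 4 were the giant ruler nebulin, Neb (-2.61, adjusted p = 5e-13), the capping protein tropomodulin 1, Tmod1 (-2.10, adjusted p = 2e-12), and Lmod1 (-1.23, adjusted p = 0.0033), all in limma. Tmod3, the widely expressed tropomodulin, was higher (1.34, adjusted p = 9.3e-12), at 107 ± 5.34 scaled CPM against 41.7 ± 6.37 in control and 105 ± 10.2 on day 0 (SD, n = 3). Tmod2 was not called on any of the 3 days.

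Most of the general chaperones that fold myosin and actin were higher at 5 µM on days 2 and 4, while Unc45b was lower. Of 17 folding genes, 15 fell in control cells from day 0 to day 4 and none rose, where 29.5% of all genes tested fell and 30.3% rose. At 5 µM, 1 was higher and 1 lower after a day, where 4.29% were higher and 9.41% lower. The second day had 10 higher and none lower, and day 4 had 11 higher and 1 lower. Among all genes tested 10.2% were higher and 13.4% lower on day 2, and 27.3% were higher and 28.6% lower on day 4. On day 4 Hsp90aa1 was higher by 0.97 (adjusted p = 1.1e-12), Hsp90ab1 by 0.30 (adjusted p = 0.0058) and Naca by 0.35 (adjusted p = 0.00035), in limma. Unc45a, the general form of the chaperone, was higher by 0.88 (adjusted p = 7.4e-05), while Unc45b was lower by 2.82. Of the 4 other SMYD genes, Smyd4 (0.62) and Smyd5 (0.72) were higher and Smyd3 lower (-1.16) on day 4, and Smyd2 was not called (-0.09).

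Stress fibre genes, the non-muscle partners of tropomyosin, mostly fell in control cells like Tpm4. Of 14, 10 were lower and 3 higher on day 4 than on day 0, where 29.5% of all genes tested were lower and 30.3% higher. At 5 µM, 6 were lower and none higher after a day, where 9.41% were lower and 4.29% higher. Day 2 had 3 lower and 2 higher, and day 4 had 7 lower and 2 higher. Of all genes tested, 23.7% were called on day 2 (13.4% lower, 10.2% higher) and 55.8% on day 4 (28.6% lower, 27.3% higher). The stress fibre count of day 4 lay near the background only when both directions were pooled. By direction it leaned to lower, with 7 lower and 2 higher, while all genes tested were nearly balanced. Whether this lean differed from the background was not tested. Tagln was lower by 5.26 on day 4 (adjusted p = 1.3e-24) and Myl9 by 1.75 (adjusted p = 6.5e-13), whereas Tagln2 was higher by 1.49 (adjusted p = 1.2e-14), in limma. The summed smooth muscle markers, of which 4 of 5 passed the filter, were 3040 to 3670 scaled CPM in control cells of day 4 and 1400 to 1490 at 5 µM, nearly all from Acta2. All 4 were lower at 5 µM, and the defining marker Myh11 was at 0 in control cells of day 4. The summed cardiac markers were 23.5 to 30.6 in control cells of day 4 and 4.55 to 7.44 at 5 µM, with Myl7 at 0 in both groups. On the same day 4 of 5 muscle lineage markers were lower at 5 µM and Myf5 was higher, with sums of 5070 to 5850 in control cells and 2520 to 3060 at 5 µM. The part of these markers in the results was not tested.

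In 5 pairs of a muscle form and a general form of the same kind of factor, the forms moved in opposite directions in 2 comparisons of day 4. The pairs were chosen after their values were seen. In control cells from day 0 to day 4, the muscle forms Unc45b, Tmod1, Cap2, Cfl2 and Fhod3 rose, and the general forms Unc45a, Tmod3, Cap1, Cfl1 and Fhod1 fell. Of all genes tested, 30.3% rose and 29.5% fell. At 5 µM against control on day 4, the muscle forms were lower and the general forms higher, where 28.6% of all genes tested were lower and 27.3% higher. The gap was wide for Cap2 (-2.22) and Cap1 (1.45) and for Fhod3 (-2.90) and Fhod1 (1.23), and narrow for the cofilins Cfl2 (-0.32) and Cfl1 (1.04). On day 1 none of the general forms was called at 5 µM, where 13.7% of all genes tested were called. On day 2, Cfl2 (0.03, not called) and Cfl1 (0.34, adjusted p = 0.012, limma) lay on the same side of 0, and the other pairs on opposite sides. Since the pairs were picked for moving in opposite directions, the pattern is given as a description.

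**Figure D4:**
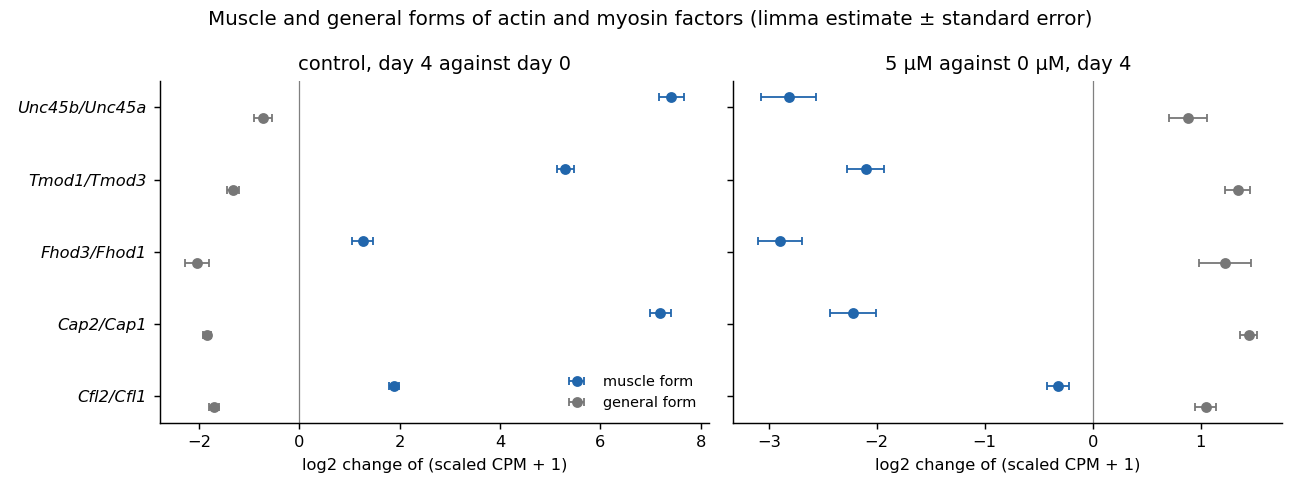
Log2 change (limma estimate ± standard error) of the muscle form (blue) and the general form (grey) of 5 kinds of actin or myosin factor, in control cells of day 4 against day 0 (left) and at 5 µM against control on day 4 (right). Each pair lies on opposite sides of 0 in both panels, with Unc45b at 7.41 and -2.82 and Unc45a at -0.73 and 0.88.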

How the data were processed

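RNA was extracted with TRIzol and sequenced after the Illumina TruSeq RNA Library Prep kit, per the labels' protocols. The authors deposited 1 signal value per gene and library, named CPM, with a further scaling per library that the file does not describe. For the aligner, counting tool, genome build and strand setting, the labels and the file name nothing (not given in the sources used here). Values came out as whole reads for 100% of entries within 0.02 read, and columns summed to 892246 to 1079916.

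From these, log2(scaled CPM + 1) was fitted with limma 3.58.1 (R 4.3.3), with a mean per group over all 30 libraries, a trended variance and 20 residual degrees of freedom, for the 12946 genes with at least 1 scaled CPM in 3 libraries. Adjusted p values are Benjamini-Hochberg over these genes. Ratios within libraries were compared by an exact permutation test (scipy 1.17.1). Alternatives were edgeR 4.0.16 and DESeq2 1.42.0 on recovered reads, other filters, pseudocounts and scalings, and each library left out. The limma script was tested on simulated data.

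Named were the 8 members, their direct partners and relatives, up to 3 genes per list with the largest rise or fall, and the 3 genes nearest to each member among those spanning at least 1 log2. Cap1, Cap2, Cfl1, Cfl2, Fhod1 and Fhod3 were chosen after their values were seen. The members and lists were chosen with earlier results of these data known. The exclusion of the 2 day 1 libraries was chosen after seeing the data. Gene lengths and exon positions are from GENCODE vM21, and promoter sequences are from RefSeq GRCm38.p6. Gene values cannot separate isoforms, and each value rests on 3 libraries.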

Additional observations from a re-analysis of the deposited data

Results flagged for a closer look

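For 6 of the 8 genes, the effect of 5 µM against control differed between days in a test of that difference (limma, 3 libraries per group, adjusted over all genes). The share of all genes tested that was called was 5.8% from day 1 to day 2, 23.7% from day 2 to day 4, and 31.5% from day 1 to day 4. From day 1 to day 2 it changed by -0.52 in Tpm1 (adjusted p = 0.0039), -0.58 in Tpm2 (adjusted p = 0.0061), 0.38 in Tpm3 (adjusted p = 0.015) and 0.54 in Tpm4 (adjusted p = 0.0027). The Tpm3 change was 0.30 without replicate 3 of 5 µM on day 1 and did not pass (adjusted p = 0.073). Changes of 0.67 in Lmod2 and 0.70 in Lmod3 were not called (adjusted p = 0.19 and 0.089, limma). Both were called by edgeR (adjusted p = 0.039 and 0.025) and DESeq2 (adjusted p = 0.0033 and 0.0056). From day 2 to day 4 the effect changed by -0.62 in Tpm2 (adjusted p = 0.00097) and by -0.50 in Tpm4 (adjusted p = 0.0018). The Tpm1 change of -0.30 just missed the threshold (adjusted p = 0.055, limma). It was called by edgeR (adjusted p = 0.031) and DESeq2 (adjusted p = 0.0064), and by limma without the 2 libraries that stood apart (adjusted p = 0.016).

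From day 1 to day 4 the effect changed by -0.82 in Tpm1 (adjusted p = 1.3e-06), -1.20 in Tpm2 (adjusted p = 2.3e-08) and 0.53 in Tpm3 (adjusted p = 9.8e-05). It changed by 0.81 in Lmod3 (adjusted p = 0.0089) and by 0.55 in Smyd1 (adjusted p = 0.047), both toward control. The Smyd1 change did not pass in 10 of 12 fits with 1 library left out. The 3 spans share libraries and are not independent of each other.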

How the results depend on the processing

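Of the log2 changes of the 8 genes under alternatives other than leaving out 1 library, 2193 kept their direction and side of the threshold, 56 gained and 41 lost a call, and 14 reversed. With 1 library left out the numbers were 1234, 10, 43 and 9. The counts of members called at 5 µM against control held within 1.5 times, except 2 higher on day 2 when only the groups of the comparison were fitted (1 in the main result).

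Genes lower at 2 µM on day 1 (4) were 2 with every gene above 0 in 3 libraries or a pseudocount of 0.25, 0 with only the groups compared, 1 without the 2 libraries that stood apart, and 1 to 5 with 1 library left out. Those lower at 2 µM on day 2 (0) were 5 with only the groups compared, and 1 with DESeq2 or without the 2 libraries. Those lower at 2 µM on day 4 (2) were 1 with a pseudocount of 0.25, 4 with DESeq2, 5 without the 2 libraries, and 1 to 2 with 1 library left out. With only the groups compared, 5 against 2 µM gave 1 lower on day 1 (5), and 1 higher on day 2 (0), as did DESeq2. Genes that fell at 5 µM from day 1 to day 2 (0) were 1 with every gene above 0, the filter of 5 CPM, a pseudocount of 4, median-of-ratios scaling or edgeR, 2 with quantile normalization, DESeq2 or without the 2 libraries, and 0 to 1 with 1 library left out. Effects that moved up from day 1 to day 2 (2) were 1 with only the groups compared or without the 2 libraries, 4 with edgeR or DESeq2, and 1 to 3 with 1 library left out. Effects that moved down from day 2 to day 4 (2) were 4 with only the groups compared. The cause was not tested.

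Signs turned for changes that were not called. Tpm3 at 2 µM from day 2 to day 4 was 0.004 with median-of-ratios scaling and DESeq2. Tpm1 at 5 µM on day 2 against control day 1 was -0.029 with quantile normalization. With a pseudocount of 4, the day 1 to day 2 change of effect was -0.015 for Lmod2 and -0.131 for Unc45b, and the day 1 to day 4 change for Lmod2 was -0.498. That change for Unc45b was 0.253 with a pseudocount of 0.25, 0.092 with quantile normalization, 0.097 with edgeR and 0.07 with DESeq2, and with a pseudocount of 4 it was -0.688 and passed (adjusted p = 0.044). For Tpm4 it was -0.013 with median-of-ratios scaling, -0.068 with quantile normalization, -0.02 with DESeq2 and -0.024 without the 2 libraries. With 1 library left out, the ranges that crossed 0 were -0.265 to 0.027 for Lmod3 at 2 µM on day 2, -0.12 to 0.055 for Lmod3 at 5 µM on day 4 against control day 2, -0.076 to 0.102 for Tpm3 between doses on day 1, -0.024 to 0.136 for Tpm4 and -0.486 to 0.308 for Unc45b in the change of effect from day 1 to day 4.

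The share of all genes called at 2 µM lay between 0.672% and 3.58% on day 1, and between 0.147% and 0.239% on day 2, with 1 library left out. With only the groups compared, the share was 6.6% for 5 against 0 µM on day 1 (13.7%), 0%, 2.5% and 3.44% for 2 against 0 µM on days 1, 2 and 4 (1.99%, 0.51% and 8.84%), and 0.185% for 5 against 2 µM on day 1 (5.54%). Without the 2 libraries it was 0.888% and 0.966% at 2 µM on days 1 and 2, and 3.13% between the doses on day 1. In every other comparison without them it stayed within 1.5 times of the main share. At 2 µM on days 1 and 2 it was 1.23% and 0.306% with every gene above 0 and 3.54% and 1.34% with DESeq2, and on day 2 it was 0.996% with a pseudocount of 4. A replicate block changed no count of members and no member's call. Same-numbered libraries did not deviate together (median correlation 0.0055, 2 of 135 pairs over 0.1), so the numbers were not taken as pairs. Counts of few reads limit Lmod2, Lmod3 and Unc45b on day 0 and at 5 µM on day 1.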
